A study of Homo sapiens with 8 samples.

Results

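The interferon response genes described here are a list of 39 genes that interferon is known to induce or that carry its signal. All 39 are among the 27996 genes of the expression table, and they were followed in 4 poly(A) RNA-seq libraries and in the m6A peak lists of the same cells. HL60 is an established promyelocytic cell line from an acute myeloid leukemia. HL60/ADR is a line derived from it by stepwise exposure to Adriamycin (ADR, doxorubicin) up to 0.5 μg/ml, so that every difference below compares 1 selected derivative with its parent and cannot be told apart from other changes acquired during selection. By the paper, HL60/ADR was maintained at 0.5 μg/ml ADR, and the drug was left out of the medium for a week before the experiments. The 4 HL60/ADR libraries carry the cell line label HL60, and they were assigned by their titles. Methylated RNA immunoprecipitation sequencing (MeRIP-seq) was performed with 2 input and 2 immunoprecipitated (IP) libraries a line, and no interferon treatment is named for any of them. The input libraries gave gene expression in FPKM (fragments per kilobase of transcript, scaled to the fragments mapped), and IP over input gave 1 pooled list of m6A peaks a line.

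Interferons are secreted proteins that signal through paired membrane receptors and the kinases JAK1 and TYK2. After a type I interferon binds, STAT proteins, among them STAT2, are phosphorylated and join IRF9 in the complex ISGF3, which binds the interferon-stimulated response element (ISRE) in the promoters of the response genes. The products detect, degrade or sequester foreign RNA and block virus entry or release, and many of them have a basal level in unstimulated blood cells. N6-methyladenosine (m6A) is a methyl mark on adenosine in mRNA that reader proteins bind, and it is known to affect the stability and translation of transcripts.

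The depth of each library is unknown from the FPKM table. By the paper's supplement, replicate 1 of HL60/ADR had the fewest valid reads among the input libraries. The limma fit was run on log2(FPKM + 1) for the 13053 genes with a mean FPKM of at least 0.5. The 2 libraries of a line are described as biological duplicates, but the labels do not say whether they came from separate cultures, so that p-values measure the spread between these libraries, which may be technical. Over all genes tested the median log2 change was -0.18, and rescaling the libraries by the median of ratios moved it up by 0.18, so changes of this size are not distinct from the shift of all genes. Markers of promyelocytes (MPO, ELANE, AZU1, PRTN3, CTSG and CD33) summed to 183 FPKM in both HL60 libraries and to between 1223 and 1257 FPKM in HL60/ADR, led by MPO in HL60 and by CTSG in HL60/ADR, with ELANE under 1 FPKM in HL60. Of 9 markers of T and NK cells, 8 were listed, and they summed to between 62.1 and 64.8 FPKM in HL60. In HL60/ADR they summed to between 284 and 289 FPKM. All 4 that were tested (CD3D, TRAC, TRBC1 and NKG7) were higher in HL60/ADR at a limma adjusted p under 0.05, as were 30.9% of all genes. Of those not tested, CD3E was at 0.0925 and 0.0757 FPKM in HL60 and at 0.846 and 0.752 FPKM in HL60/ADR. CD3G, CD2 and GNLY reached at most 0.0133, 0.254 and 0.172 FPKM. Markers of B cells summed to between 17.8 and 18.2 FPKM in HL60 and between 5.63 and 6.99 FPKM in HL60/ADR, those of erythroid cells and megakaryocytes (GATA1 and ITGA2B) to between 5.95 and 6.75 FPKM and between 0.0743 and 0.163 FPKM, and those of monocytes and macrophages to between 45.1 and 46.1 FPKM and between 78.1 and 78.9 FPKM, with CSF1R lower in HL60/ADR. The sum over 6 epithelial and fibroblast markers was 4.47 and 0.138 FPKM in the 2 HL60 libraries and 11.3 and 2.32 FPKM in the 2 HL60/ADR libraries, so replicate 1 stood higher in both lines. The part of these markers in the results below was not tested, and in bulk libraries fewer cells of a type and less RNA per cell cannot be told apart.

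The ISRE half-sites in the promoters of the members are shown because ISGF3 is the known regulator of the set. The motif searched was GAAANNGAAA on the gene's strand or TTTCNNTTTC, its reverse complement, in windows from 250 bases before to 50 after a RefSeq transcription start (GRCh38.p14). The table of promoters held 31 of the 39 members with 40 promoters, DDX58 under its newer symbol RIGI. The motif was in 25 of these 40 promoters (62.5%) against 1255 of all 35116 promoters (3.57%). Counted by gene, 21 of 31 members had it. STAT2, IRF1, IRF9, DDX58, OAS1, HERC6, SAMD9L, IFI35, XAF1 and SP110 had no match in the windows searched. Shown 5′ to 3′ are 30 bases upstream of the start for the 4 members called by the expression test and for ISG15, one of the most abundant members, with every base of a motif in capitals.
BST2, chr19:17405735-17405764, minus strand, -134 to -105 from the start: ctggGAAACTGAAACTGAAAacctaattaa
IFI6, chr1:27672266-27672295, minus strand, -103 to -74 from the start: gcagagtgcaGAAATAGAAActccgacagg
HERC5, chr4:88457035-88457064, plus strand, -84 to -55 from the start: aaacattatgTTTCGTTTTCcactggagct
SAMD9, chr7:93118096-93118125, minus strand, -146 to -117 from the start: tctgagaaatGAAACTGAAAccaaacctat
ISG15, chr1:1013380-1013409, plus strand, -117 to -88 from the start: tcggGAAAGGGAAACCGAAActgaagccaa
In BST2 and ISG15 a pair of motifs overlaps within the window, and IFI6 and HERC5 each have 2 further motifs farther upstream. The BST2 and SAMD9 windows hold the same 10 bases, GAAACTGAAA, and BST2 rose while SAMD9 fell. Of the 14 tested members with the motif, 4 were higher and 7 lower in HL60/ADR at an adjusted p under 0.05, and of the 9 tested members without it 1 was higher and 6 were lower. Among all genes tested, 30.9% were higher and 48.8% lower.

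Most interferon response genes were expressed at a low to moderate level without interferon, and the set moved in both directions. Of the 39 members, 28 passed the expression filter and were tested. In HL60/ADR, 2 members were called higher (BST2 and IFI6) and 2 were called lower (HERC5 and SAMD9), a call being an adjusted p under 0.05 with a log2 change over 1 in size. Among all 13053 genes tested, 8.93% were called higher and 13.8% called lower, so the members' 2 and 2 of 28 are no more frequent than the background. By the adjusted p alone, 7 members were higher, against 30.9% of all genes, 15 were lower, against 48.8% of all genes, and 6 did not pass. The median log2 change of the tested members was -0.20, beside -0.18 over all genes tested. With libraries rescaled by the median of ratios, the members split 11 higher and 11 lower, against 39.5% and 39.3% of all genes. The calls of members then became 3 higher and 1 lower, against 11.9% and 9.72% of all genes. The FPKM values of the 2 lines did not overlap in 34 of 39 members, against 65.5% of all 27996 genes listed, many of which were at or near 0.

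**Figure D1:**
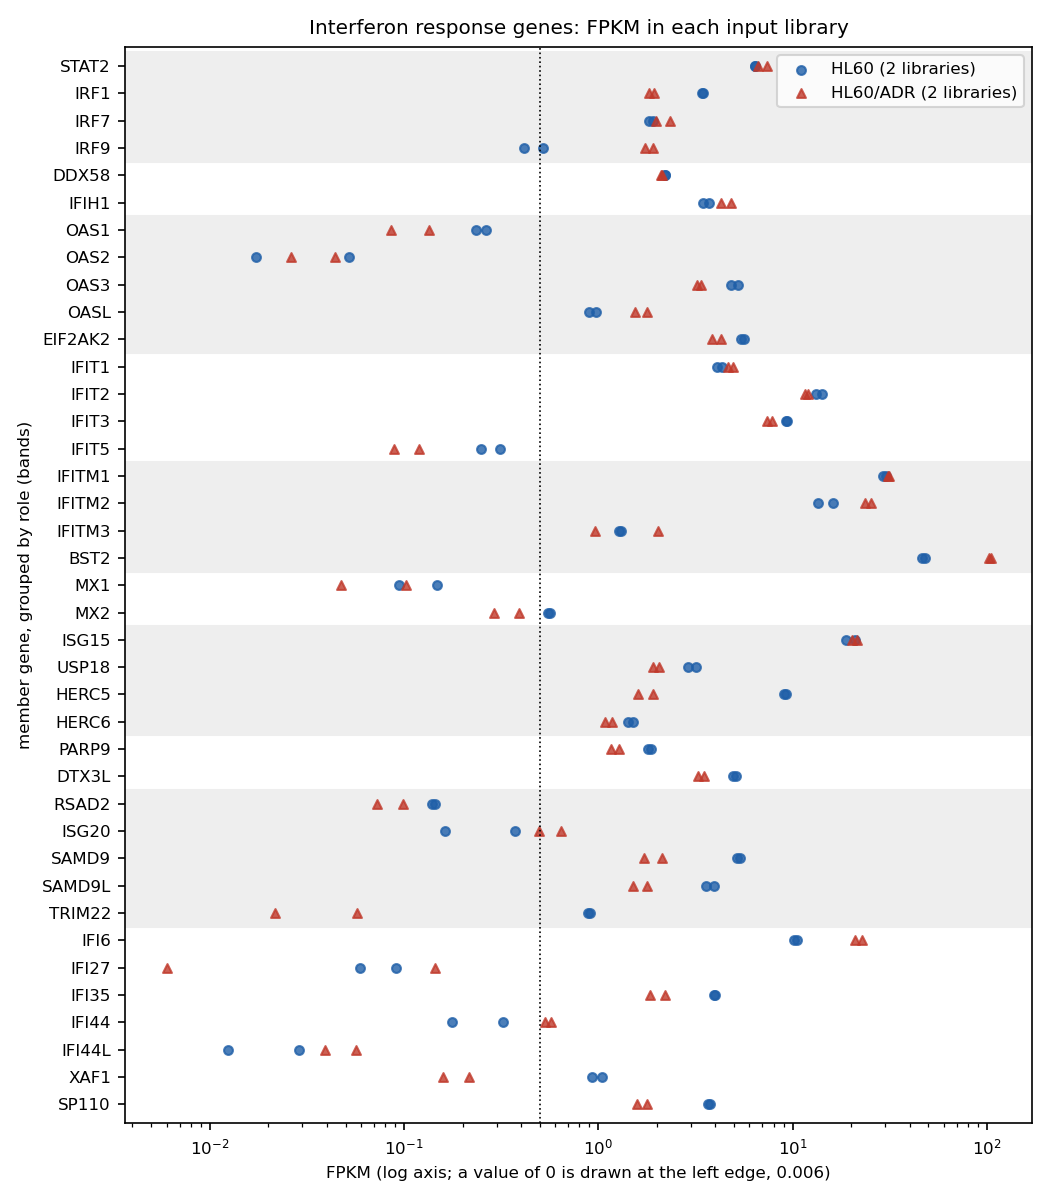
FPKM of the 39 members (rows, banded by role) in the 2 HL60 (circles) and 2 HL60/ADR (triangles) input libraries on a log axis; the dotted line marks an FPKM of 0.5 and a value of 0 is drawn at 0.006. BST2 stands highest in both lines, and HERC5, SAMD9, XAF1 and TRIM22 lie farther left in HL60/ADR.

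By level, BST2 ranked first in both lines, at a mean of 47.2 ± 1.20 FPKM in HL60 and 104 ± 1.61 FPKM in HL60/ADR (SD, n = 2). IFITM1 ranked second in both lines. In HL60 it was followed by ISG15 (19.9 ± 1.52 FPKM), IFITM2 (14.8 ± 1.84 FPKM), IFIT2 (13.7 ± 0.688 FPKM) and IFI6 (10.4 ± 0.289 FPKM). The difference between IFITM2 and IFIT2 in that order is smaller than the spread of IFITM2. In HL60/ADR the order after IFITM1 was IFITM2, IFI6, ISG15 and IFIT2, and the means of IFI6 (21.9 ± 1.34 FPKM) and ISG15 (20.9 ± 0.822 FPKM) differed by less than their spread. These 6 members were at 10 FPKM or more in every library. At the other end, 13 members in HL60 and 12 in HL60/ADR were under 1 FPKM in both libraries. HERC5 stood at rank 8 in HL60 and at rank 21 in HL60/ADR.

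Among the transcription factors, IRF9 rose, IRF1 fell, and STAT2 and IRF7 did not pass the test. IRF9, the DNA-binding subunit of ISGF3, was at 0.519 and 0.417 FPKM in HL60 and at 1.92 and 1.74 FPKM in HL60/ADR. Both HL60/ADR values lay above both HL60 values, and the log2 change of 0.95 ± 0.08 (SE; limma adjusted p = 0.000483) stayed just under the limit for a call. With a pseudocount of 0.1 in place of 1 the change was 1.77 and with rescaled libraries 1.06, and under both settings IRF9 was called higher. IRF1, a factor that interferon gamma induces and that activates many response genes, was at 3.40 and 3.45 FPKM in HL60 and at 1.83 and 1.93 FPKM in HL60/ADR, a fall of 0.62 on the log2 scale (SE 0.05, limma adjusted p = 0.000429). STAT2, the partner of IRF9, was at 6.40 and 6.41 FPKM in HL60 and at 7.37 and 6.67 FPKM in HL60/ADR (limma adjusted p = 0.12). Without HL60/ADR replicate 2 the change of STAT2 was 0.18 with a limma adjusted p of 0.0357, and with rescaled libraries it was 0.32 with a limma adjusted p of 0.00606. IRF7, which drives the later wave of interferon alpha genes, was at 1.81 and 1.92 FPKM against 1.97 and 2.35 FPKM (limma adjusted p = 0.177), and its change was 0.30 with rescaled libraries (limma adjusted p = 0.0241).

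The sensors of double-stranded RNA changed little. DDX58, which encodes RIG-I, was at 2.19 FPKM in both HL60 libraries and at 2.09 and 2.14 FPKM in HL60/ADR, and it did not pass the test (limma adjusted p = 0.544). Its log2 change was -0.04, and 0.13 with rescaled libraries. IFIH1, which encodes MDA5, was at 3.71 and 3.46 FPKM in HL60 and at 4.26 and 4.81 FPKM in HL60/ADR, a rise of 0.27 ± 0.07 (limma adjusted p = 0.0206). The rise of IFIH1 missed the threshold without HL60 replicate 1 (limma adjusted p = 0.0679), without HL60 replicate 2 (limma adjusted p = 0.118) and without HL60/ADR replicate 2 (limma adjusted p = 0.0776).

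Of the enzymes that double-stranded RNA activates, OAS3 and EIF2AK2 fell and OASL rose. The OAS proteins make short 2′-5′ linked adenylates that switch on the nuclease RNase L. OAS3 was at 4.84 and 5.23 FPKM in HL60 and at 3.23 and 3.39 FPKM in HL60/ADR (log2 change -0.48 ± 0.05, limma adjusted p = 0.00127). EIF2AK2, the kinase PKR that shuts down translation initiation, was at 5.65 and 5.40 FPKM against 4.27 and 3.86 FPKM (log2 change -0.37 ± 0.06, limma adjusted p = 0.00409). The fall of EIF2AK2 was -0.17 with rescaled libraries and then missed the threshold (limma adjusted p = 0.0552). OASL, a member of the family without synthetase activity that enhances RIG-I signalling, was at 0.974 and 0.890 FPKM in HL60 and at 1.55 and 1.78 FPKM in HL60/ADR (log2 change 0.46 ± 0.08, limma adjusted p = 0.00503). OAS1 reached at most 0.265 FPKM and OAS2 at most 0.0519 FPKM, both under the filter, so OAS3 stood alone among the synthetases at a level over 1 FPKM.

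The IFIT genes, whose products bind viral RNA ends and hold back its translation, differed by at most 1.22-fold in FPKM between the lines where they were tested. IFIT2 was at 14.2 and 13.2 FPKM in HL60 and at 11.6 and 12.0 FPKM in HL60/ADR, a log2 change of -0.20 ± 0.04 (limma adjusted p = 0.0141) that became 0.025 with rescaled libraries. Without HL60 replicate 1 or HL60/ADR replicate 1 the limma adjusted p of IFIT2 was 0.0572 or 0.078. IFIT3 was at 9.31 and 9.21 FPKM against 7.79 and 7.42 FPKM (log2 change -0.25 ± 0.04, limma adjusted p = 0.00342), and the change was -0.04 with rescaled libraries. IFIT1 was at 4.31 and 4.09 FPKM against 4.67 and 4.95 FPKM (log2 change 0.16 ± 0.05, limma adjusted p = 0.0362), and leaving out any 1 of the 4 libraries raised its adjusted p to between 0.0615 and 0.163. IFIT5 reached at most 0.312 FPKM and was not tested. All 4 genes lie side by side on chromosome 10, overlapping or close to LIPA on the other strand. The libraries mark strand, but whether the counting used it is not given in the sources used here, so a share of LIPA reads in the IFIT values cannot be told apart.

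The membrane restriction factors held the highest levels of the set, and BST2 and IFITM2 rose. BST2 encodes tetherin, which holds budding virus particles at the cell surface. It was at 48.0 and 46.3 FPKM in HL60 and at 103 and 105 FPKM in HL60/ADR. The HL60/ADR values were 2.20-fold higher, with no overlap and a spread far smaller than the gap (log2 change 1.12 ± 0.03, limma adjusted p = 1.99e-05). The IFITM proteins block the fusion of virus and cell membranes. IFITM2 was at 16.1 and 13.5 FPKM in HL60 and at 25.4 and 23.5 FPKM in HL60/ADR (log2 change 0.69 ± 0.09, limma adjusted p = 0.00243). IFITM1 was at 29.2 and 30.2 FPKM against 31.4 and 31.0 FPKM and did not pass (limma adjusted p = 0.0743), although it did with rescaled libraries (log2 change 0.30, limma adjusted p = 0.00054). IFITM3 was at 1.28 and 1.31 FPKM against 2.02 and 0.966 FPKM, so the HL60/ADR libraries lay on both sides of HL60 (limma adjusted p = 0.74). Without HL60/ADR replicate 1 the log2 change of IFITM3 was -0.23, and without HL60/ADR replicate 2 it was 0.39 (limma adjusted p = 0.0195). The IFITM genes are near-identical copies and the annotated span of IFITM2 holds IFITM1, so how reads were split among them is uncertain.

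The ISG15 system is a ubiquitin-like pathway in which ISG15 is the modifier, HERC5 the main ligase in human cells, and USP18 the enzyme that removes the modifier. ISG15 was at 18.8 and 20.9 FPKM in HL60 and at 20.3 and 21.5 FPKM in HL60/ADR, overlapping between the lines (limma adjusted p = 0.328). Its log2 change was 0.07, -0.0013 without HL60 replicate 1 and 0.30 with rescaled libraries (limma adjusted p = 0.00864). HERC5 was at 9.06 and 9.22 FPKM in HL60 and at 1.91 and 1.59 FPKM in HL60/ADR. This is the largest fall among the tested members on the log2(FPKM + 1) scale, and 5.21-fold in FPKM (log2 change -1.88 ± 0.07, limma adjusted p = 4.68e-05), and HERC5 was called lower under every alternative run. USP18, which also damps the signal at the interferon receptor, was at 3.18 and 2.90 FPKM against 1.92 and 2.06 FPKM (log2 change -0.43 ± 0.06, limma adjusted p = 0.00314). HERC6, the neighbour of HERC5 on chromosome 4 and the ISG15 ligase of mice, was at 1.46 ± 0.0605 FPKM against 1.13 ± 0.0672 FPKM (SD; log2 change -0.21 ± 0.07, limma adjusted p = 0.0407). Leaving out any 1 of the 4 libraries raised the adjusted p of HERC6 to between 0.0684 and 0.126. While the values of the modifier overlapped between the lines, its ligase stood at 9.14 ± 0.109 FPKM in HL60 and at 1.75 ± 0.226 FPKM in HL60/ADR (SD, n = 2).

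PARP9 and DTX3L, which form a complex that ubiquitinates histones and supports interferon-driven transcription, fell together. DTX3L was at 4.96 and 5.10 FPKM in HL60 and at 3.50 and 3.28 FPKM in HL60/ADR (log2 change -0.46 ± 0.05, limma adjusted p = 0.00103). PARP9 was at 1.86 and 1.80 FPKM against 1.28 and 1.17 FPKM (log2 change -0.35 ± 0.06, limma adjusted p = 0.00678). Both falls passed the adjusted p under every alternative run. The 2 genes start head to head on chromosome 3 with overlapping ends on opposite strands, and the promoter windows of both hold the same 10-base ISRE motif, read as GAAACTGAAA for DTX3L and as TTTCAGTTTC for PARP9.

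Among the other restriction factors, SAMD9 and SAMD9L, neighbouring paralogs on chromosome 7 that restrain growth and poxvirus replication, both fell. SAMD9 was at 5.15 and 5.37 FPKM in HL60 and at 1.72 and 2.13 FPKM in HL60/ADR, 2.74-fold lower in FPKM (log2 change -1.10 ± 0.08, limma adjusted p = 0.000349). With rescaled libraries the change of SAMD9 was -0.92, under the size limit for a call but past the adjusted p. SAMD9L was at 3.77 ± 0.250 FPKM in HL60 against 1.64 ± 0.194 FPKM in HL60/ADR (SD; log2 change -0.85 ± 0.08, limma adjusted p = 0.000655), and it was called lower with a pseudocount of 0.1. TRIM22, a ubiquitin ligase that restricts retroviruses, was at 0.887 and 0.904 FPKM in HL60 and at 0.0217 and 0.0574 FPKM in HL60/ADR. That is a 22.6-fold difference in mean FPKM, but the mean over all libraries was under 0.5 FPKM and TRIM22 was not tested. RSAD2, which encodes viperin, reached at most 0.145 FPKM, and ISG20, an RNA exonuclease, at most 0.640 FPKM. The Mx GTPases were near the floor as well, MX1 at most at 0.148 FPKM and MX2 at most at 0.561 FPKM.

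Among the remaining induced genes, IFI6 rose while IFI35, XAF1 and SP110 fell. IFI6, a small membrane protein that opposes apoptosis and flavivirus replication, was at 10.2 and 10.6 FPKM in HL60 and at 22.8 and 20.9 FPKM in HL60/ADR, 2.11-fold higher in FPKM (log2 change 1.01 ± 0.05, limma adjusted p = 0.00011). The value lies at the size limit, and IFI6 was no longer called without HL60 replicate 1 (0.98) or without HL60/ADR replicate 1 (0.95), while its adjusted p passed in both. SP110, a nuclear body protein, was at 3.68 and 3.75 FPKM against 1.59 and 1.77 FPKM (log2 change -0.82 ± 0.06, limma adjusted p = 0.000293). XAF1, which opposes the apoptosis inhibitor XIAP, was at 0.924 and 1.05 FPKM against 0.215 and 0.158 FPKM (log2 change -0.74 ± 0.08, limma adjusted p = 0.00138). Both HL60/ADR values lay under 0.5 FPKM, so XAF1 passed the expression filter only through its HL60 values. The pseudocount of 1 compresses the change of XAF1, which was 5.28-fold in FPKM and -1.93 with a pseudocount of 0.1. IFI35 was at 3.96 and 3.97 FPKM against 2.20 and 1.84 FPKM (log2 change -0.72 ± 0.07, limma adjusted p = 0.00098). IFI27, IFI44 and IFI44L, genes that interferon is known to raise strongly, reached at most 0.145, 0.571 and 0.0565 FPKM and were not tested, and IFI27 was listed at 0 in 1 HL60/ADR library.

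**Figure D2:**
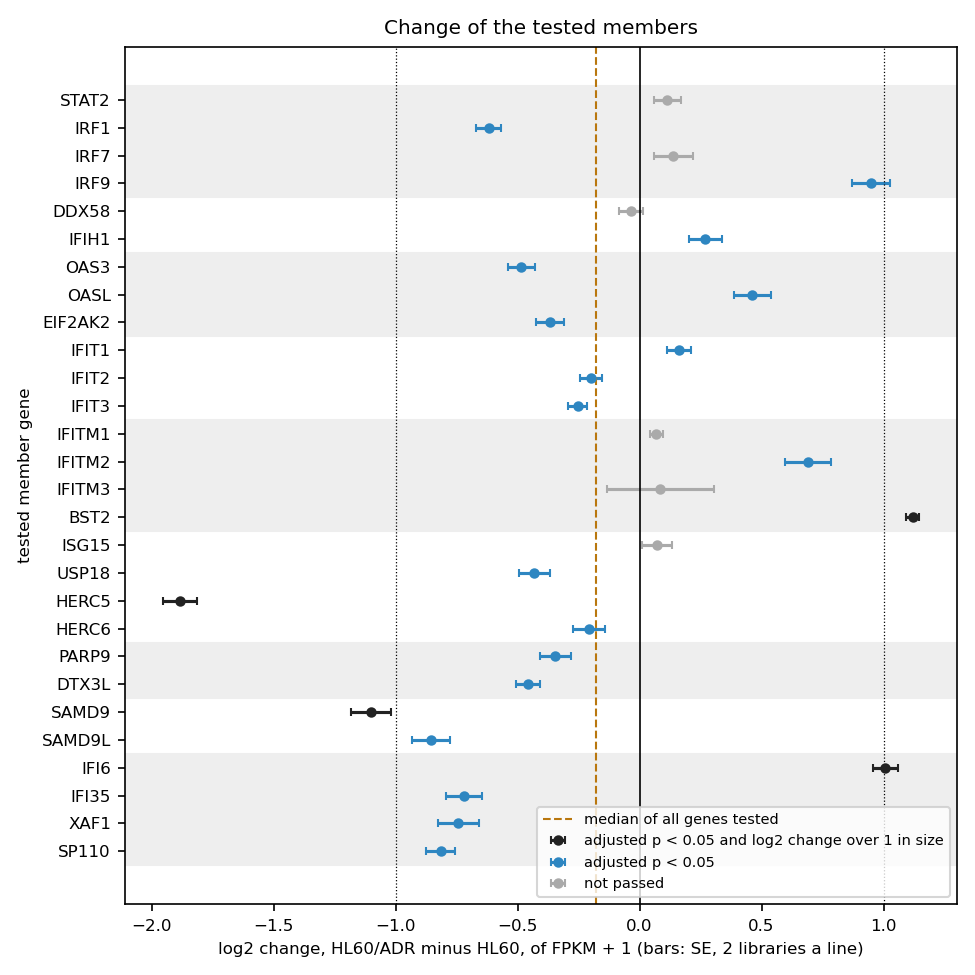
Log2 change of FPKM + 1 (HL60/ADR minus HL60) of the 28 tested members with bars of the standard error (SE) (2 libraries a line). HERC5 (-1.88) and SAMD9 (-1.10) lie left of the lower dotted limit, BST2 (1.12) and IFI6 (1.01) right of the upper one, and the dashed line marks the median of all genes tested (-0.18).

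In all, 5 of the 7 higher members (IRF9, OASL, IFITM2, BST2 and IFI6) and 11 of the 15 lower members (IRF1, OAS3, USP18, HERC5, PARP9, DTX3L, SAMD9, SAMD9L, IFI35, XAF1 and SP110) passed the adjusted p in the same direction under every alternative in which they were tested. XAF1 fell under the stricter filter of 1 FPKM and was not tested there. It passed the filter of 0.5 FPKM only through HL60, the line where it was higher. The HL60 mean of IRF9 was 0.468 FPKM, so IRF9 passed that filter through HL60/ADR. The smallest two-sided p that an exact permutation test can give for 2 against 2 libraries is 0.333, so no member can pass such a test on its own.

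Upstream of these genes, the interferon genes were at most near 1 FPKM and the receptor genes moved in both directions. Of 90 further pathway genes in a list that does not contain the members, 79 were in the table and 63 were tested, of which 5 were called higher and 7 lower, and 19 were higher and 32 lower by the adjusted p. These counts lie close to the background shares given above for all genes (8.93% and 13.8% called, 30.9% and 48.8% by the adjusted p). Their median log2 change was -0.13. Of 13 interferon genes, 5 were listed, and IFNB1 alone was tested, at 0.974 and 1.02 FPKM in HL60 and at 0.817 and 0.752 FPKM in HL60/ADR (limma adjusted p = 0.0909). The receptor genes IFNAR2, IL10RB, IFNAR1 and IFNGR2 follow each other on chromosome 21. IFNAR1, a chain of the type I receptor, was at 12.3 and 12.6 FPKM in HL60 and at 5.83 and 6.10 FPKM in HL60/ADR (log2 change -0.95 ± 0.04, limma adjusted p = 5.52e-05). IFNAR2, its partner, fell as well (log2 change -0.65 ± 0.09), as did IL10RB (-0.23 ± 0.04), the shared chain of the type III receptor, whose change was -0.0027 with rescaled libraries (limma adjusted p = 0.952). IFNGR2, a chain of the interferon gamma receptor, was at 26.4 and 27.4 FPKM against 59.0 and 57.7 FPKM and was called higher (log2 change 1.09 ± 0.03, limma adjusted p = 2.3e-05). IFNGR1 rose by 0.21 ± 0.03 and IFNLR1 was at 0 in 3 of 4 libraries.

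The kinases and STATs changed less. JAK1 changed by -0.11 ± 0.03 (0.11 with rescaled libraries), JAK2 by 0.34 ± 0.08 and STAT3 by -0.53 ± 0.03, while TYK2 did not pass (0.05 ± 0.02) except with rescaled libraries (0.28, limma adjusted p = 0.000573). SOCS3, an induced inhibitor of JAK signalling, was at 0.418 and 0.252 FPKM against 4.06 and 3.25 FPKM and was called higher (log2 change 1.80 ± 0.12, limma adjusted p = 0.000244). The list of nucleic acid sensing holds sensors and the proteins that relay their signal. In it, 10 of 14 tested genes fell by the adjusted p and 2 rose, beside 48.8% and 30.9% of all genes tested. CGAS, the cytosolic DNA sensor, was called lower (log2 change -1.31 ± 0.07) and so was TLR9, a receptor for DNA in endosomes (-1.12 ± 0.08). In contrast, STING1, the adaptor of CGAS, was called higher at 3.13 and 3.22 FPKM in HL60 against 10.8 and 10.5 FPKM in HL60/ADR (1.48 ± 0.04). SOCS3 passed the filter through HL60/ADR and TLR9 through HL60, each being under 0.5 FPKM in the other line.

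Of 32 tested genes in the list of further interferon-induced genes, 11 were higher and 15 lower by the adjusted p, near the 30.9% and 48.8% of all genes tested, and 6 did not pass. LGALS3BP, a secreted glycoprotein, had the largest fall, from 17.0 and 16.7 FPKM to 2.81 and 2.78 FPKM (log2 change -2.24 ± 0.03, limma adjusted p = 9.8e-06). LY6E, a membrane protein that blocks coronavirus fusion, fell by 1.74 on the log2 scale, PNPT1, a mitochondrial RNA nuclease, fell by 1.43 and SAMHD1, a nucleotide hydrolase, fell by 1.07, each of them called. TRIM14 and PARP12 were the remaining calls, lower and higher. PARP12 was under 0.5 FPKM in HL60 and passed the filter through HL60/ADR. SHFL, an inhibitor of ribosomal frameshifting in viruses, was called higher (log2 change 1.23 ± 0.10). With rescaled libraries SAMHD1 changed by -0.94 and was not called.

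**Figure D3:**
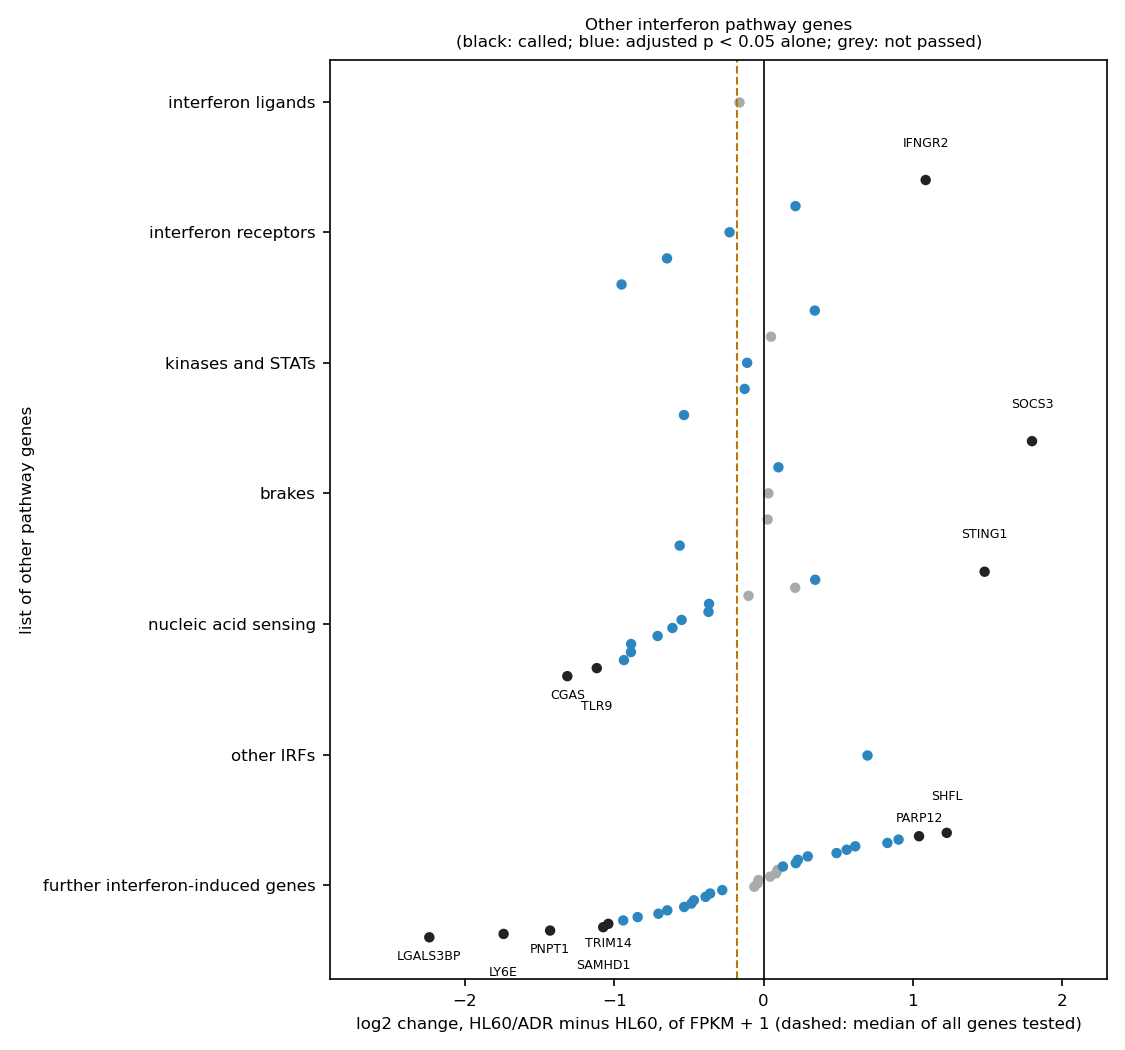
Log2 change of FPKM + 1 (HL60/ADR minus HL60) of the 63 tested pathway genes outside the set, by list, with called genes in black and named. SOCS3 (1.80) and STING1 (1.48) lie farthest right and LGALS3BP (-2.24) farthest left.

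The m6A peak lists were then searched for the members. In HL60, 80 of 40550 peaks were named for 34 members, and in HL60/ADR 78 of 38834 peaks were named for 32 members. The whole lists named 15214 genes in HL60 and 14813 in HL60/ADR, beside 27996 genes in the expression table, many of them at or near 0 FPKM. Peaks were in both lists for 30 members, in the HL60 list alone for 4 (OAS1, IFIT3, USP18 and IFI35), in the HL60/ADR list alone for 2 (OAS2 and IFIT1), and in neither for IRF7, IFITM1 and HERC5. The OAS1 peaks each had an exomePeak p of 0.048, with a log10 false discovery rate of -0.367 and -0.751. The OAS2 peak had an exomePeak p of 0.03, with a log10 false discovery rate of -0.566. These 2 genes reached at most 0.265 and 0.0519 FPKM. The peaks were called on pooled replicates, so their fold enrichment (IP over input) has no replicate error and no test was run. By region, 38 of the 80 HL60 peaks (47.5%) and 40 of the 78 HL60/ADR peaks (51.3%) lay in 3′ UTRs, beside 45.9% and 45.1% of all peaks. The median fold enrichment was 4.67 over the members' HL60 peaks and 4.88 over their HL60/ADR peaks, beside 3.86 and 5.32 over all peaks. SAMD9 and XAF1 had 6 peaks each in HL60, and SAMD9L and XAF1 had 7 each in HL60/ADR, the most among the members.

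Peak names did not always follow the gene. Some peaks named for IFITM2, IFITM3 and IRF1 were annotated to an exon of another gene. HERC5 had no peak in HL60 although its input level was 9.14 FPKM there. IFIT1 had no peak by name in HL60, but 3 peaks named for LIPA lay inside its span, among them one of 1559 exonic bases with a fold enrichment of 6.16, and in HL60/ADR 4 LIPA peaks lay there with fold enrichments up to 7.09. IFIT3 had no named peak in HL60/ADR, where 2 LIPA peaks lay inside its span, the weaker one with a fold enrichment of 6.41. Counted by position, a choice made after these names were seen, 35 members in HL60 and 32 in HL60/ADR held a peak.

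Many fold enrichments are whole multiples of one step at their 3 significant digits, 1.1036 in HL60 and 0.8868 in HL60/ADR. From 6 to 40 steps, this held for 8525 of the 40550 HL60 peaks and 11248 of the 38834 HL60/ADR peaks, and for 20 of 80 and 23 of 78 member peaks. Members with a mean under 1 FPKM in the line held 12 of the 20 and 14 of the 23. Values above 40 steps were not classified, since the rounding is then too coarse, but the 3 such values among the members, all in HL60/ADR (48.8 in OASL, 40.8 and 39.9 in XAF1), also equal whole multiples, of 55, 46 and 45 steps. A ratio built on such a value differs between the lines in part by the size of the step, so values on a step are named below as on a step.

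Peaks that overlapped 1 to 1 by at least 1 exonic base gave 33 pairs in 24 members, of 16544 pairs in all genes. Of the 33, 24 had the higher fold enrichment in HL60/ADR, with a median log2 ratio of 0.32, beside 0.35 over all pairs. It was over 2-fold higher in 5 member pairs, against 19.0% of all pairs, and over 2-fold lower in 3, against 4.81% of all pairs. In IFIT2, the peak annotated to the 5′ UTR was at 5.15 in HL60 and 11.9 in HL60/ADR, 2.31-fold higher, with neither value on a step. The 4 others were in MX2 (1.44 and 13.3), TRIM22 (2.90 and 12.4), SP110 (4.20 and 12.4) and RSAD2 (2.76 and 6.21), each with the HL60/ADR value on a step. TRIM22, MX2 and RSAD2 were under 0.5 FPKM in both HL60/ADR libraries. The 3 lower pairs were in IRF1 (22.1 and 4.88), HERC6 (11.0 and 4.43) and ISG20 (8.83 and 2.19), each with the HL60 value on a step. Without pairs on steps, 1 higher pair (IFIT2) and 0 lower pairs were left. Where both peaks had to share at least 50% of their length, 4 pairs were higher and 1 was lower. Shares over all pairs under these settings are not given here, so these counts have no background.

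The RNA sensor IFIH1 had 2 pairs that went apart. One, annotated to the 5′ UTR, was at 4.66 in HL60 and 8.75 in HL60/ADR, and one in an exon was at 2.64 and 1.47. The peaks of the first pair ran over 3 blocks, of 1259 bases in HL60 and 1289 in HL60/ADR, so the annotation need not hold for their whole length. OAS3 was at 5.20 and 9.72 in its stronger pair and at 3.56 and 4.02 in the other, both in 3′ UTRs. STAT2 had 1 pair, at 2.49 and 4.47. None of these ratios passed 2-fold.

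Several members had a different number of overlapping peaks in the 2 lists and so formed no pair, and their strongest peaks were set side by side, a comparison chosen after the pairs were seen. The strongest peaks of a member need not lie at the same place. Of the 30 members with peaks in both lists, the strongest peak was over 2-fold higher in HL60/ADR in 9, against 24.1% of all genes, and over 2-fold lower in 4, against 6.45% of all genes. OASL had the highest enrichment of the set. Its 3′ UTR peak had a fold enrichment of 11.6 over 1222 bases in HL60 and 48.8 over 1103 bases in HL60/ADR, 4.21-fold higher. The value of 48.8 equals 55 whole steps, above the classified range. XAF1 followed with 3′ UTR peaks of 5.69 and 9.53 in HL60. In HL60/ADR it had peaks of 25.7 (on a step) and 40.8 (46 whole steps, above the classified range). Its input level there had fallen to 0.215 and 0.158 FPKM. Further XAF1 peaks in HL60/ADR, at 4.88 and 4.14, overlapped the HL60 peak of 9.53 and were lower than it. In HL60 its strongest peak by value was at 12.1 in the 5′ UTR, on a step. IFIT5 (5.96 and 21.3) and MX1 (9.93 and 20.4) were higher as well, but both genes were under 0.5 FPKM, their HL60/ADR values were on steps, and the MX1 peaks lay at opposite ends of the gene. The 4 lower members were IRF1 (22.1 and 5.32), HERC6 (12.1 and 4.77), RSAD2 (17.7 and 6.21) and ISG20 (8.83 and 2.44), all with the HL60 value on a step. The IRF1 value of 5.32 came from a peak annotated to an exon of another gene. EIF2AK2 (2.13 and 6.21) and IFITM2 (1.74 and 5.32) were higher with the HL60/ADR value on a step, and IFIT2, TRIM22 and SP110 of the pairs above completed the 9. The EIF2AK2 peak of 6.21 covered 61 bases, reached outside the annotated span of the gene and had an exomePeak p of 0.05. The IFITM2 peak of 5.32 was annotated to an exon of another gene, while the 3′ UTR pair of IFITM2 was at 1.74 and 1.90. For the counts without steps, shares over all genes are not given here. Without peaks on 6 to 40 steps, OASL, IFIT2 and XAF1 stayed over 2-fold higher, and 0 members were over 2-fold lower. IRF1 then read as 2.21-fold higher (2.21 and 4.88), but these 2 peaks do not overlap. The HL60 peak that overlaps the one of 4.88 was at 22.1 and had been left out, so the IRF1 values cannot show a direction. With values above 40 steps left out as well, IFIT2 and IRF1 were the 2 members over 2-fold higher. OASL then read as lower (11.6 in HL60 and 3.35 in HL60/ADR), as did XAF1 (9.53 and 4.88, under 2-fold). The 3.35 peak of OASL does not overlap the 11.6 peak. The 48.8 peak does overlap it and was among the values left out, so the OASL values cannot show a direction.

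**Figure D4:**
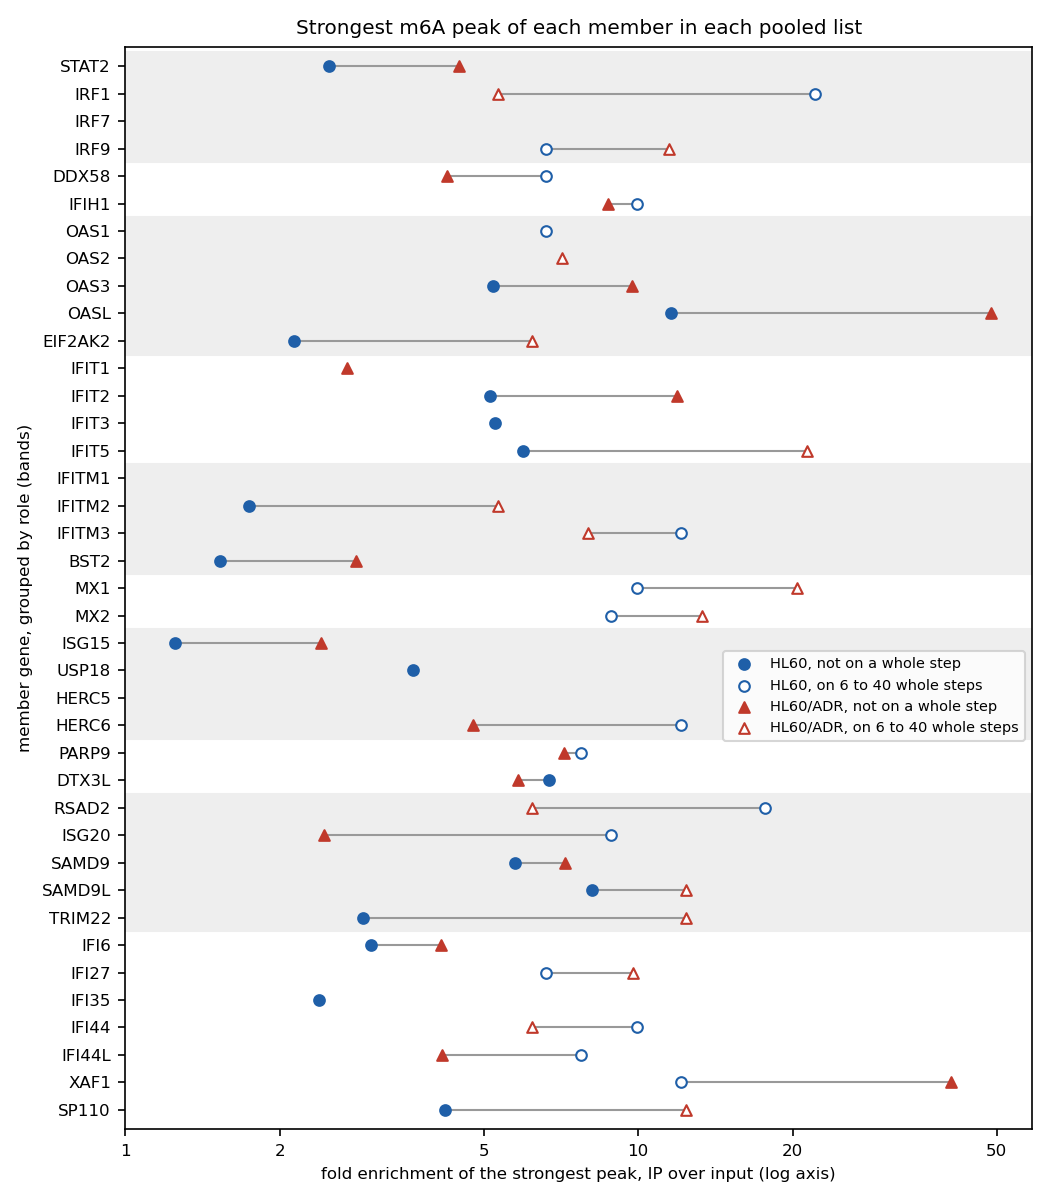
Fold enrichment (IP over input, log axis) of the strongest peak of each member in the HL60 (circles) and HL60/ADR (triangles) lists, open where the value is on 6 to 40 whole steps. Values above 40 steps were not classified and are drawn filled, although 48.8 and 40.8 also equal whole multiples. OASL (11.6 and 48.8) and XAF1 (12.1 and 40.8) reach the highest values in HL60/ADR, and IRF7, IFITM1 and HERC5 have no peak.

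The remaining high values were IFITM3 at 12.1 in HL60, and IRF9 at 11.5 and SAMD9L at 12.4 in HL60/ADR, all on steps. The IRF9 peak was annotated to the 5′ UTR and the SAMD9L peak to the 3′ UTR. The peak of 12.1 named for IFITM3 was annotated to an exon of another gene. In IRF9 each list held 2 overlapping peaks annotated to the 5′ UTR, at 4.72 and 4.10 in HL60 and at 11.5 and 1.87 in HL60/ADR. The direction there depended on which of them was read. The peaks of 4.72 and 11.5 reached outside the annotated span of IRF9.

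For the 4 called members, the mark and the level can be set side by side. BST2 had 1 peak in each list, in the 3′ UTR, at 1.53 over 60 bases in HL60 and 2.82 over 328 bases in HL60/ADR, with a higher input level. IFI6 had the same 262 bases of its 3′ UTR called in both lists, at 3.01 in HL60 and 4.12 in HL60/ADR, also with a higher input level. ISG15, whose level did not pass the test, had a 3′ UTR peak at 1.25 in HL60 and 2.41 in HL60/ADR. The HL60 values of BST2 and ISG15 lie under the fold enrichment of 2 by which the paper defines an m6A peak. SAMD9 had 6 peaks in each list along its coding exon and UTRs, and the 4 that paired 1 to 1 changed by between 0.77-fold and 1.25-fold while its expression fell 2.74-fold. HERC5 had none.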

How the data were processed

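MeRIP-seq of HL60 and HL60/ADR was analysed from 2 input libraries a line and 1 pooled peak list a line. The authors trimmed reads with fastp, mapped them with HISAT2 to the Ensembl release 101 human genome (GRCh38), called peaks with exomePeak at p < 0.05, annotated them with ChIPseeker and deposited FPKM values from StringTie. The deposited peak lists give a fold enrichment (a ratio of IP to input), a p-value and, as scores, the log10 of p and of the false discovery rate. The strand setting of the counting and tool versions are not given in the sources used here. Library depth is unknown from FPKM, and the read counts in the paper's supplement were not used in the fits.

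Expression was compared with limma 3.58.1 (R 4.3.3) on log2(FPKM + 1), for means from 0.5 FPKM upward, with a mean trend, cell line as the only term and Benjamini-Hochberg adjustment over 13053 genes. The script was tested on simulated data. Peaks were matched by exonic blocks with bedtools 2.31.1. Columns of peak p-values were used as descriptions only. Every member was reported, called members with all 4 values, untested members with their highest FPKM. Of the further pathway genes, the text names the 10 called genes with the largest change, the receptors and the kinases; 1 further named gene is not reported here. STAT3 was added after its values were seen. Peaks are named where a pair changed over 2-fold or a fold enrichment reached 10. The members and all gene lists were chosen with earlier results of these data known. Alternatives were another pseudocount, no filter or a filter at 1 FPKM, median-of-ratios rescaling, no trend, a replicate block, leaving out each library, and stricter peak thresholds and overlaps. Promoters are RefSeq sequences (GRCh38.p14).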

Additional observations from a re-analysis of the deposited data

How the results depend on the processing

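A pseudocount of 0.1 gave 5 members called lower and 14 further pathway genes called lower, with a median member change of -0.25, and all genes called higher and lower went from 1165 and 1798 to 1778 and 2712. Without a filter the median was -0.074. Median-of-ratios rescaling gave 1 member called lower (9.72% of all genes) and 11 higher by the adjusted p (39.5% of all genes). It gave a member median of -0.0075 and turned the sign of DDX58 (0.13), IFIT2 (0.025) and JAK1 (0.11). Leaving out 1 library at a time gave member medians from -0.24 to -0.17. The changes ran from -0.0013 to 0.15 for ISG15 (0.30 with rescaling) and from -0.23 to 0.39 for IFITM3. A line with 1 library left was assumed to vary like the other. A stricter peak list (false discovery rate up to 1e-05, enrichment from 4) held 15 members for HL60 and 16 for HL60/ADR, 3 pairs higher and 0 lower, and 4 strongest peaks higher and 0 lower. Without peaks on 6 to 40 whole steps, left out after the data were seen, 1 pair was higher and 0 lower, and 4 strongest peaks were higher and 0 lower. With peaks above 40 steps left out too, 1 pair was higher and 0 lower, and 2 strongest peaks were higher and 1 lower. An overlap of 50% left 1 lower pair. Shares over all genes are not given for these filtered peak counts. By the labels, same-numbered libraries of the 2 lines share only a number (correlation of deviations 0.043 over 13053 genes), although epithelial markers were higher in replicate 1 of both. With the replicate block, 2 members were called higher and 2 lower, against 8.93% and 13.8% of all genes. By the adjusted p, 6 members were higher and 14 lower, against 30.5% and 48.2% of all genes, with a member median of -0.20. Of the further pathway genes, 5 were called higher and 7 lower with the block. Apart from the shifts that rescaling makes by construction, the cause of these differences was not tested.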
